A study of Mus musculus with 11 samples.

Results

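The genes described here encode the plasma membrane and vesicular carriers of the SLC1, SLC3, SLC6, SLC7, SLC36, SLC38 and SLC43 families, most of which move amino acids. They were chosen by symbol alone, as every gene of these 7 families in the deposited table of reads per gene whose symbol ends in a number, which leaves out the SLC6 genes Slc6a20a and Slc6a20b. This gave 61 of 52550 genes, of which 35 had enough reads to be tested for a difference between the diets and 26 did not. The cells were colonic epithelial cells of RAG KO mice, which carry the genotype RAG1 KO on the C57BL/6 strain and therefore lack mature T and B cells. Of the 61 genes, 9 SLC6 members carry other substrates such as creatine, taurine or serotonin, and the SLC43 member Slc43a3 carries purine nucleobases.

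RNA was sequenced from 5 CD mice, whose purified diet held cellulose as its fiber, and from 6 FFD mice, whose otherwise matching diet was fiber-free. Both groups were kept on the diet for 4 weeks and then received DSS (dextran sulfate sodium, a polymer that injures the colonic epithelium) in the drinking water for 5 days, so no untreated mouse enters the comparison and both groups share the genotype and the injury. Both diets supplied free amino acids in place of protein, according to the methods of the study. Neither age nor sex is given in the labels. The comparison asks which carrier genes differ in level between injured colonic epithelium with and without dietary cellulose.

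Epithelial cells take up amino acids from the lumen through carriers of the apical membrane and release them to the blood through exchangers of the basolateral membrane. Several exchangers are pairs of a heavy chain, which brings the complex to the membrane, and a light chain, which moves the amino acids. The rBAT heavy chain pairs with the apical cystine carrier, and the 4F2 heavy chain (CD98) pairs with most of the other light chains, among them the basolateral exporters of cationic amino acids and the carriers of large neutral amino acids that dividing cells rely on. In the colon, where little dietary amino acid arrives, carriers of this kind also serve the epithelium's own supply of glutamine, cystine and serine.

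The total count per mouse was 20853535 to 28588266 for the CD diet and 10374154 to 27973285 for the FFD diet, with FFD mouse 4 the shallowest. The unit of level is CPM, in which each gene's counts are scaled to the TMM-normalized total of the library, and log2 fold changes are signed so that positive values are higher without cellulose. Markers of colonic epithelium were present in every mouse, summing to 11310 to 13400 CPM (CD) and 12940 to 16810 CPM (FFD), and those of T and B cells summed to at most 2.70 CPM in any mouse. The groups differed in their epithelial markers. Of 12 markers of absorptive colonocytes 9 were higher in FFD mice (summed level 10770 to 15160 CPM in CD, 17870 to 30990 CPM in FFD), of 8 goblet cell markers 4 were higher and 1 lower (5469 to 10120 against 11310 to 17370 CPM), and of 10 markers of dividing cells 7 were lower (934 to 1307 against 393 to 925 CPM). Of the 7 tested stem cell markers 5 were lower (177 to 240 against 105 to 161 CPM over all 8 listed). Neutrophil markers summed to 26.6 to 72.8 CPM on CD and to 73.5 to 286 CPM on FFD, with 3 of 5 tested markers higher. Of 10 macrophage markers 2 were higher (16.8 to 23.4 against 21.5 to 34.0 CPM), as were 3 of 8 enteroendocrine markers (223 to 414 against 326 to 562 CPM). Rag1 itself kept 8 to 40 counts per mouse, and a count over the whole gene does not check a deletion within it. The part that these shifts have in the differences of the carrier genes was not tested, and in bulk RNA fewer cells of a type and less RNA per cell cannot be told apart.

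Of the 35 tested carrier genes, 9 rose in FFD mice, 5 fell and 21 did not pass the test (edgeR's quasi-likelihood test, adjusted p under 0.05 over all tested genes). That is 40% of the members, against 36.8% of all 15044 tested genes. By direction, 25.7% of the members were higher, against 18.2% of all tested genes, and 14.3% were lower, against 18.6%. The median log2 fold change was 0.14 over the tested members and -0.03 over all tested genes, and the median size of the change without its sign was 0.30 against 0.26. The values of the diets did not overlap for 7 of the 35 members (20.0%), against 18.5% of all tested genes. The share of members that differed therefore lay near the background of this comparison. The members' counts together made up 0.181% to 0.233% of all counts of CD mice and 0.236% to 0.270% of those of FFD mice. These are shares of raw totals, without TMM, and their ranges did not overlap. Slc6a14 held the largest share of the members' summed CPM. It made up 27.5% ± 3.05 (SD, n = 5) in CD and 33.3% ± 2.31 (SD, n = 6) in FFD mice. The creatine carrier Slc6a8 came next, with 10.8% ± 1.73 in CD and 16.2% ± 2.45 in FFD mice. Both genes rose, so the higher summed share does not show a rise of the other members.

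**Figure D1:**
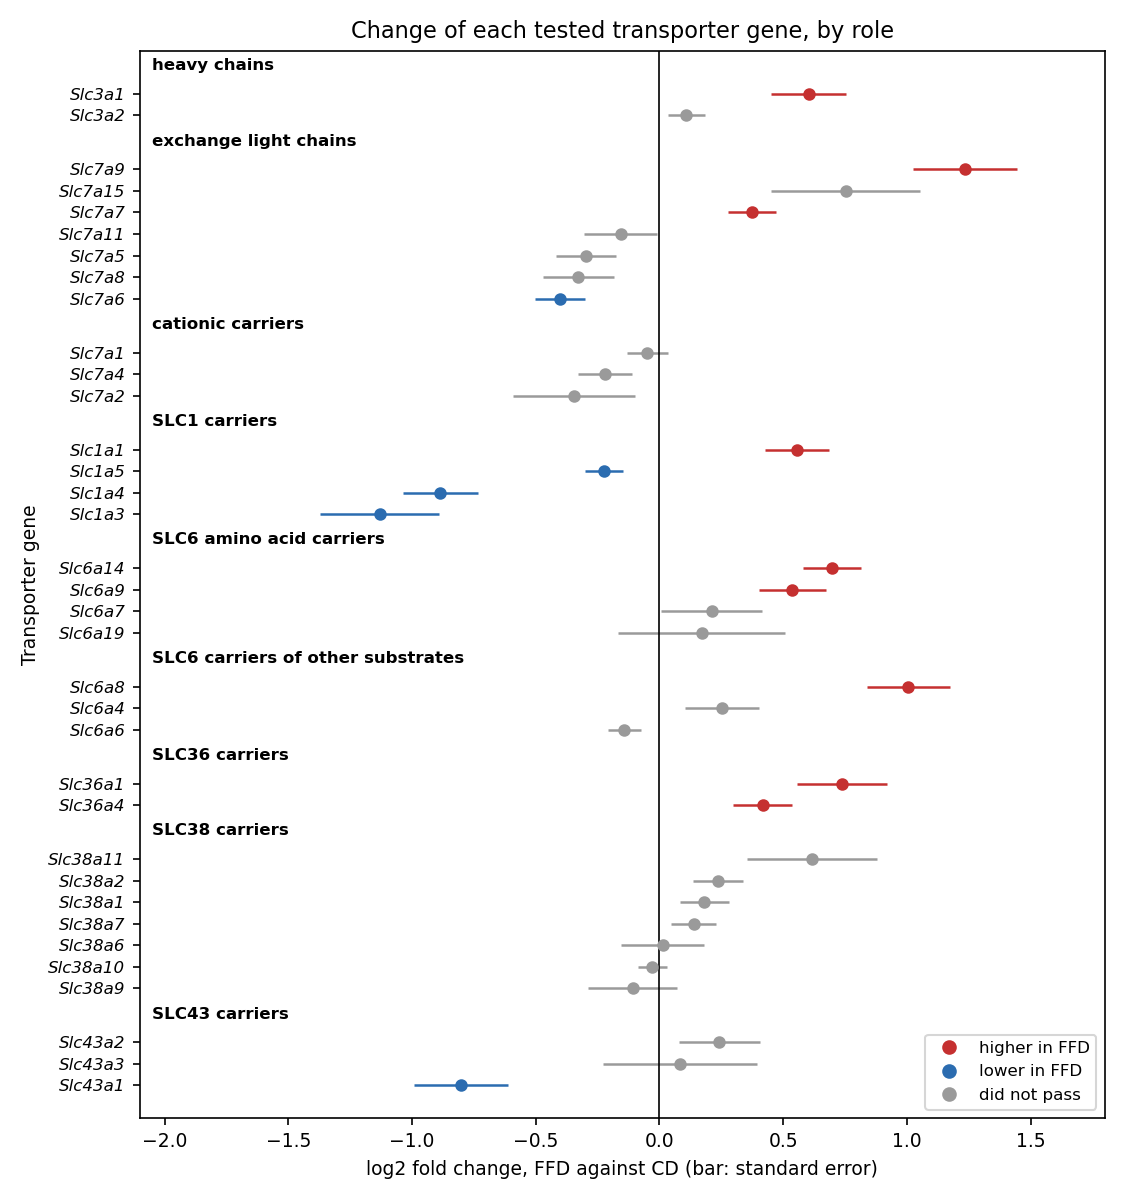
Difference between the diets, as the log2 fold change of FFD against CD mice (horizontal axis), for each of the 35 tested carrier genes, grouped by role, with bars for the standard error of the edgeR fit; red and blue points passed the test and gray points did not. The 9 genes that rose include both tested SLC36 carriers and the pair Slc3a1 and Slc7a9, and 3 of the 4 tested SLC1 carriers fell. The 7 SLC38 carriers and the 3 members of the CAT family (labeled cationic carriers) are all gray. Of all tested genes 36.8% passed.

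The carriers spanned a wide range of levels. Per kilobase of exon, so that genes of different length can be compared, Slc6a14 was the highest in both diets, at 157 ± 31.1 CPM per kb in CD mice (SD, n = 5) and 255 ± 17.1 in FFD mice (SD, n = 6). It was followed in both diets by Slc6a8 (41.0 and 82.4 CPM per kb), Slc1a5 (33.1 and 28.4) and Slc38a2 (22.1 and 26.0). Next in CD mice came Slc38a10 (19.1) and Slc3a2 (18.2), which differed by less than the SD of the latter, and then Slc7a7 (15.3) and Slc3a1 (15.2 CPM per kb), which also differed by less than their SDs. In FFD mice Slc3a1 (23.1) and Slc36a1 (21.5) stood above Slc7a7 (19.8), Slc3a2 (19.7) and Slc38a10 (18.7 CPM per kb), and each of these 5 differed from the next by less than the larger SD of the pair. The lowest tested members were Slc7a2, Slc43a3 and Slc1a3, at 0.101 to 0.131 CPM per kb in CD mice. Slc6a19, the main apical carrier of neutral amino acids in small intestine and kidney, was among the lowest, at 0.166 CPM per kb in CD and 0.193 in FFD mice.

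**Figure D2:**
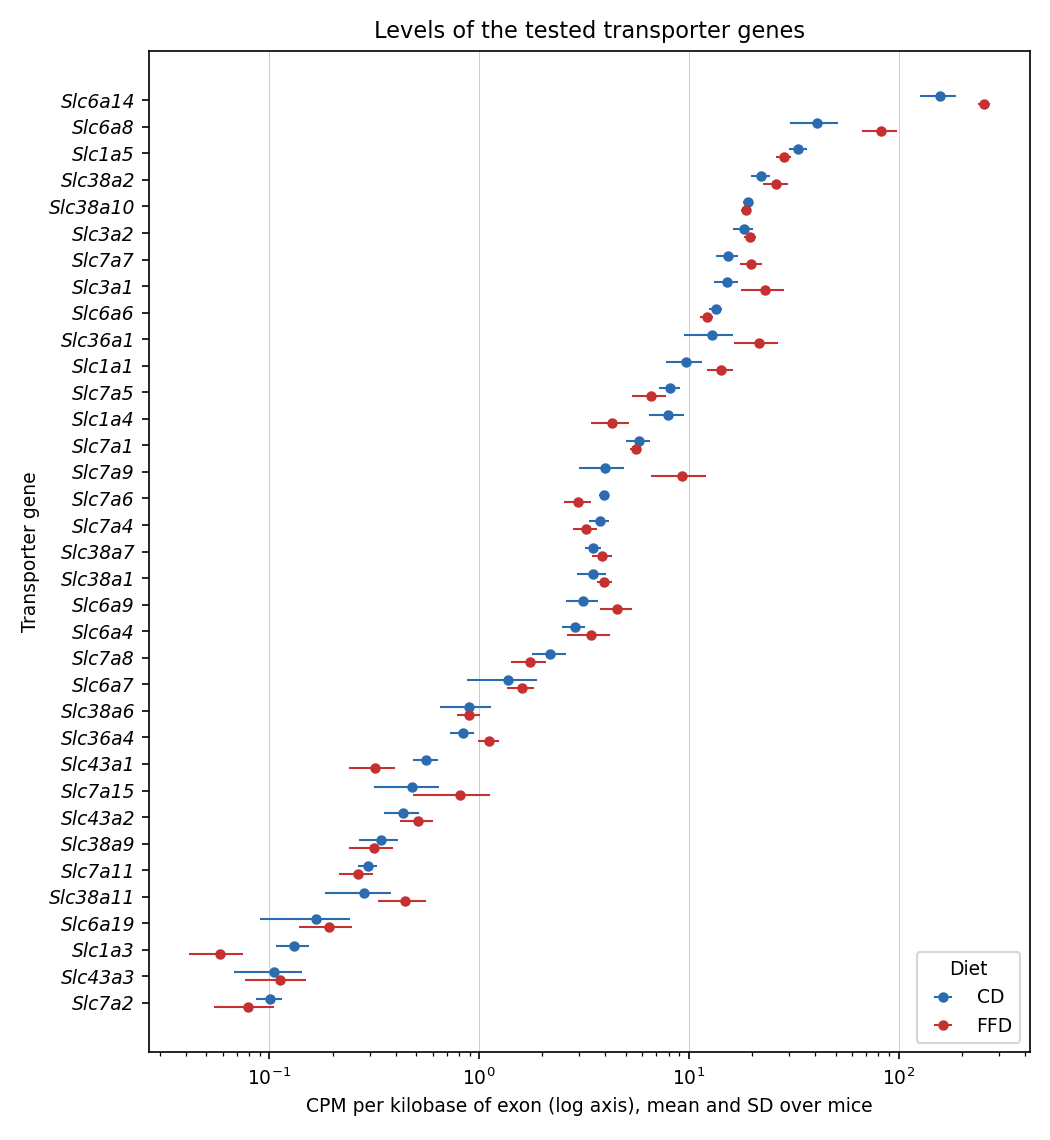
Mean level of each of the 35 tested carrier genes in CPM per kilobase of exon (logarithmic axis), blue for the 5 CD and red for the 6 FFD mice, with bars for 1 SD over mice. The 4 highest genes, from Slc6a14 at 157 to Slc38a2 at 22.1 CPM per kb in CD mice, keep their order in FFD mice, and Slc7a9 moves up from 3.96 to 9.32 CPM per kb.

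Among the 4 tested SLC6 carriers of amino acids, 2 rose and none fell, where 18.2% of all tested genes rose and 18.6% fell. Slc6a14 (chrX:21714896-21742355, + strand, GRCm38) encodes a carrier that takes up both neutral and cationic amino acids together with sodium and chloride and lies in the apical membrane of colon. Its level was 687, 566, 460, 414 and 574 CPM in CD mice 1 to 5, and 769 to 949 CPM with a median of 884 in FFD mice. Every FFD mouse was above every CD mouse, and the FFD mice lay closer together, with a coefficient of variation of 6.69% against 19.8%. The mean rose 1.62-fold, a log2 fold change of 0.70 (SE 0.12, edgeR adjusted p = 0.0015). Slc6a9, the glycine carrier GlyT1, had 16.6, 14.1, 15.8, 13.4 and 20.7 CPM in CD mice, and 18.6 to 29.6 CPM with a median of 23.2 in FFD mice. Here CD mouse 5 lay above FFD mice 1 and 3, and the other 4 FFD mice were above every CD mouse. This was a log2 fold change of 0.54 (SE 0.14, edgeR adjusted p = 0.0087). Slc6a7, the proline carrier PROT, differed by 0.21 (SE 0.20) and did not pass, except without CD mouse 1 (0.46, adjusted p = 0.044). Slc6a19 was scarce, with 114 counts in all CD libraries together and 116 in all FFD libraries. It had 0.266 to 1.28 CPM on CD and 0.605 to 1.21 CPM on FFD, and the FFD mice lay within the CD range (log2 fold change 0.17, SE 0.34, edgeR adjusted p = 0.72). Its difference turned to -0.03 when CD mouse 3, the lowest of all mice, was left out.

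Of the 3 tested SLC6 carriers of other substrates 1 rose (33.3%, against 18.2% of all tested genes). Slc6a8 (chrX:73673150-73682502, + strand), the sodium- and chloride-dependent carrier of creatine, had 222, 180, 171, 190 and 306 CPM in CD mice. In FFD mice it ranged from 316 to 503 CPM with a median of 456. The diets did not overlap, though CD mouse 5 came close to FFD mouse 3, the lowest of its diet. The mean was 2.01-fold higher in FFD mice, a log2 fold change of 1.01 (SE 0.17, edgeR adjusted p = 0.0015). The taurine carrier Slc6a6 (113 CPM in CD, 103 CPM in FFD mice) and the serotonin carrier Slc6a4 (12.9 and 15.4 CPM) did not pass, with log2 fold changes of -0.14 (SE 0.066) and 0.25 (SE 0.15). Slc6a6 passed as lower without FFD mouse 6 (-0.18, adjusted p = 0.046). Slc6a14 and Slc6a8 are both X-linked. The Y-linked gene Ddx3y had 0 to 5 counts in every mouse of either diet.

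The heavy chain rBAT and its light chain both rose. Slc3a1 encodes rBAT and Slc7a9 the light chain, which together form the apical exchanger that takes up cystine, lysine, arginine and ornithine, and whose loss causes cystinuria. Slc7a9 (chr7:35448796-35466036, + strand) had 11.98, 8.78, 8.07, 9.75 and 14.4 CPM in CD mice, and 16.1 to 33.6 CPM with a median of 25.2 in FFD mice. The diets did not overlap, and the spread was wide in both, with coefficients of variation of 24.4% and 28.9%. The mean was 2.35-fold higher in FFD mice, the largest rise of the tested members that passed (log2 fold change 1.23, SE 0.21, edgeR adjusted p = 0.0016). Slc3a1 (chr17:85028376-85064236, + strand) had 37.1, 36.9, 27.8, 31.7 and 38.5 CPM in CD mice, and 36.7 to 66.9 CPM with a median of 52.3 in FFD mice. FFD mouse 3 lay within the range of the CD mice and the other 5 were above it. The log2 fold change was 0.60 (SE 0.15, edgeR adjusted p = 0.0082). The ratio of Slc7a9 to Slc3a1, each per kb, was 0.260 ± 0.042 in CD (SD, n = 5) and 0.408 ± 0.102 in FFD mice (SD, n = 6), and rBAT was above its light chain in every mouse. Slc3a1 overlaps the gene Prepl on the opposite strand, and nothing in the sources used here says whether reads were counted by strand. Prepl had 53.9 CPM on CD and 60.4 CPM on FFD (log2 fold change 0.16, edgeR adjusted p = 0.061).

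The start of Slc3a1 is shown because rBAT is a differentiation gene of absorptive epithelium and its promoter holds an element of the hepatocyte nuclear factor HNF4 that few other promoters hold. The 280 bases at chr17:85028097-85028376 (+ strand, GRCm38.p6, RefSeq) run from 250 bases before the start of the transcript to its first 30 bases. Capitals mark the element CAAAGTCCA, found by search on both strands at positions -39 to -31 from the start, and 3 matches to TATAAA, of which those at -20 and -18 overlap each other on opposite strands.
Slc3a1: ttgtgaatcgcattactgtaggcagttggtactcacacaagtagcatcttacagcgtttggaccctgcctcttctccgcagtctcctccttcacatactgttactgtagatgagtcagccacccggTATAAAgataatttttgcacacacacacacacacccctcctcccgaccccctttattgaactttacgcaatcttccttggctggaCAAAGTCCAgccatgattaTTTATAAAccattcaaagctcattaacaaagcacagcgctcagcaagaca
CAAAGTCCA was found in 0.475% of the 32851 windows of 300 bases around RefSeq starts (250 before and 50 after), and in 1 of 64 windows of the 43 carrier genes that matched by symbol. TATAAA was found in 13.6% of all windows and in 9.38% of the members' windows. The motifs were chosen after the values were seen, and a match is a description of the letters only.

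The 4F2 heavy chain Slc3a2 did not pass, while its light chains moved in different directions. Slc3a2 had 65.6, 60.0, 58.3, 61.5 and 76.1 CPM in CD mice, and 62.2 to 75.2 CPM with a median of 70.7 in FFD mice. All 6 FFD mice lay within the CD range, and the log2 fold change was 0.11 (SE 0.076, edgeR adjusted p = 0.28). It was 0.19 and passed without CD mouse 5 (adjusted p = 0.041), and -0.05 when libraries were scaled to total counts. Of the 7 tested exchange light chains 2 rose (Slc7a9 and Slc7a7), 1 fell (Slc7a6) and 4 did not pass. That is 28.6% higher and 14.3% lower, against 18.2% and 18.6% of all tested genes.

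Slc7a7 encodes the basolateral exporter of lysine and arginine, whose loss causes lysinuric protein intolerance. It had 49.4, 49.4, 47.9, 45.9 and 61.0 CPM in CD mice, and 51.5 to 73.9 CPM with a median of 68.2 in FFD mice. FFD mouse 3 alone lay below CD mouse 5, which stood apart from the other CD mice. This was a log2 fold change of 0.37 (SE 0.096, edgeR adjusted p = 0.0094). The gene overlaps Oxa1l on the opposite strand, which moved the other way, from 74.4 to 57.5 CPM (log2 fold change -0.37, edgeR adjusted p = 0.0023). Slc7a6 encodes a close relative that exchanges cationic for neutral amino acids and is found in many tissues. Its level was 18.03, 18.8, 19.2, 16.7 and 17.6 CPM in CD mice, and 11.3 to 16.02 CPM with a median of 13.7 in FFD mice. Every FFD mouse was below every CD mouse, and the CD mice lay close together, with a coefficient of variation of 5.54%. The log2 fold change was -0.40 (SE 0.10, edgeR adjusted p = 0.0079).

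Slc7a5 encodes LAT1, a carrier of large neutral amino acids with high levels in dividing cells. It had 29.3, 27.3, 27.8, 30.3 and 35.8 CPM in CD mice, and 19.0 to 29.6 CPM with a median of 24.9 in FFD mice. Of the 6 FFD mice, 4 lay below every CD mouse, but the difference did not pass (log2 fold change -0.30, SE 0.12, edgeR adjusted p = 0.074). Without FFD mouse 5, the highest of its diet, it was -0.36 with an adjusted p of 0.039. Slc7a8, the basolateral carrier LAT2, differed by -0.33 (SE 0.14) and did not pass, but was lower without FFD mouse 4 (-0.42, adjusted p = 0.027). Slc7a11 encodes the cystine and glutamate exchanger xCT, which feeds glutathione synthesis. It had 3.50, 3.89, 4.30, 4.37 and 4.56 CPM in CD mice, and 2.72 to 4.73 CPM with a median of 3.63 in FFD mice. The diets overlapped, with a log2 fold change of -0.16 (SE 0.15, edgeR adjusted p = 0.42). Slc7a15, a light chain gene of rodents, stood at 1.43 and 2.41 CPM, a difference of 0.75 (SE 0.30) that did not pass, though DESeq2 called it (0.77, adjusted p = 0.037), as did edgeR without CD mouse 2 (0.94, adjusted p = 0.039) or FFD mouse 3 (0.88, adjusted p = 0.030).

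Set against each other per kb, the 6 light chains that pair with 4F2 were dominated by Slc7a7. It made up 51.2% ± 1.33 of their summed level in CD mice (SD, n = 5) and 63.1% ± 5.08 in FFD mice (SD, n = 6), and the ranges, 49.8% to 52.6% and 55.2% to 70.1%, did not overlap. Slc7a5 stood at 27.2% ± 1.44 and 20.9% ± 3.64, Slc7a6 at 13.3% ± 1.43 and 9.54% ± 1.82, and Slc7a8 at 7.29% ± 0.883 and 5.62% ± 1.23. The ratio of the summed 6 light chains to the heavy chain Slc3a2 was 1.64 ± 0.069 in CD and 1.601 ± 0.117 in FFD mice. The ratio of Slc7a7 to Slc7a8 was 7.12 ± 0.944 in CD and 11.6 ± 2.48 in FFD mice, with 1 FFD mouse a little under the highest CD mouse. These shares and ratios are descriptions with no test.

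**Figure D3:**
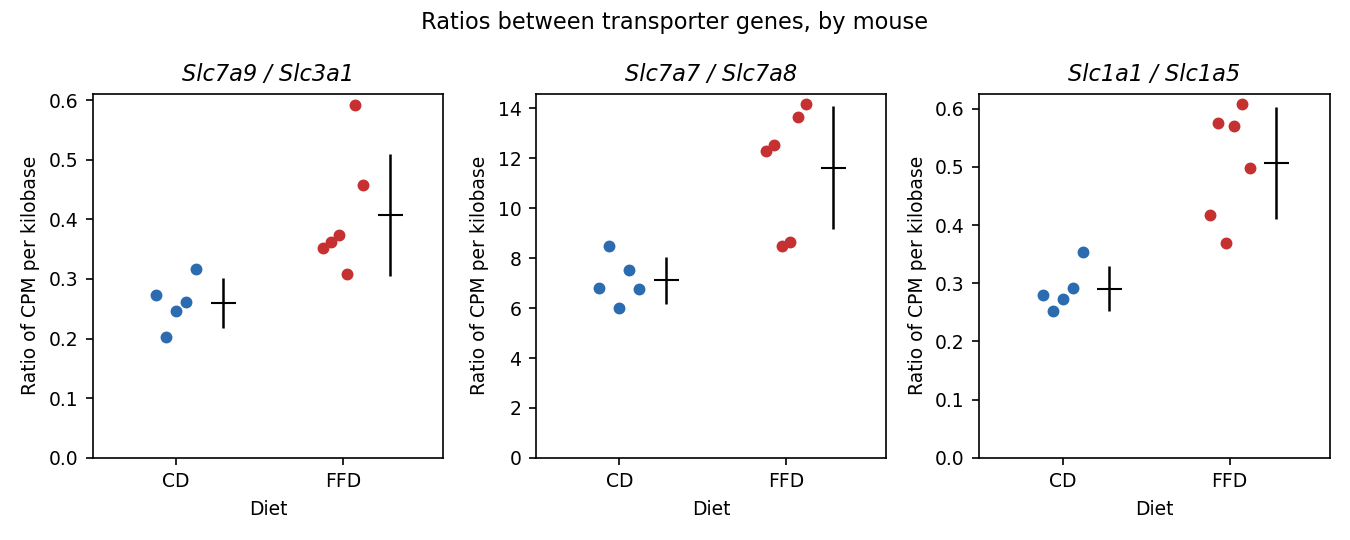
Ratio of the levels per kilobase of 3 pairs of carrier genes in each mouse (blue, 5 CD mice; red, 6 FFD mice), with the mean and 1 SD as a cross beside the points. Slc7a9 to Slc3a1 had a mean of 0.260 in CD and 0.408 in FFD mice and Slc7a7 to Slc7a8 a mean of 7.12 and 11.6, both with some overlap. Slc1a1 to Slc1a5, at 0.291 and 0.506, did not overlap. This last pair sets a gene that rose against a gene that fell, so its separation follows from those calls. None of the ratios was tested.

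The genes of 3 carriers with different results hold the same short element near their start. The element TTGCATCA, read TGATGCAA on the other strand, is a core of the C/EBP-ATF response element, through which ATF4 raises transcription when amino acids are short. It was found in 0.895% of the 32851 windows around RefSeq starts and in 4 of the 64 members' windows (6.25%), which belong to Slc1a4 (lower in FFD mice), Slc7a7 (higher) and Slc7a11 (not passed). Their starts are shown so that the element and its place can be compared. Each sequence runs from 250 bases before the start of the transcript to its first 30 bases on its own strand (GRCm38.p6, RefSeq), with capitals for the element on either strand, at chr11:20332684-20332963 for Slc1a4, chr14:54417915-54418194 for Slc7a7 and chr3:50443584-50443863 for Slc7a11, all on the - strand.
Slc1a4: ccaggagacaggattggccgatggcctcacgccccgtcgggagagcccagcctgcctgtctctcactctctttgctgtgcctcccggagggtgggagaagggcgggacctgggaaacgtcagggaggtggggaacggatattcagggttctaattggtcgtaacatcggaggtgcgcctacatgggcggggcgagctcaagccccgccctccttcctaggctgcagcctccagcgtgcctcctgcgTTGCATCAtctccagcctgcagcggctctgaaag
Slc7a7: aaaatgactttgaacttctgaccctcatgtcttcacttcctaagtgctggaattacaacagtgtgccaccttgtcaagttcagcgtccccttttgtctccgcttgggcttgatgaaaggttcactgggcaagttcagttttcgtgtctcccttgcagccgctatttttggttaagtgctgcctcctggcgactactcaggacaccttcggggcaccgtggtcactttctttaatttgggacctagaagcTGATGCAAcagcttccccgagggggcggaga
Slc7a11: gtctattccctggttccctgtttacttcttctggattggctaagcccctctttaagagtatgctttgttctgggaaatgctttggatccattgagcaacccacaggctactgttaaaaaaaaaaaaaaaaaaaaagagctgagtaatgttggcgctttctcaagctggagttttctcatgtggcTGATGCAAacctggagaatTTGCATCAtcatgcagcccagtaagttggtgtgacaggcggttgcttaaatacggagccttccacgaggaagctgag
The element lies at -4 to 4 in Slc1a4 and at -1 to 7 on the opposite strand in Slc7a7, that is, across the start of both genes. Slc7a11 holds it once on each strand, at -66 to -59 and at -47 to -40. Slc7a7 has an additional start in RefSeq, and its window overlaps the one shown and holds the same site, so the 4 windows hold the element of 3 genes. Whether the element is bound in these cells was not measured, and the letters alone do not separate the gene that rose from the gene that fell.

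All 4 tested SLC1 carriers passed the test, 1 higher and 3 lower, where 36.8% of all tested genes passed. The call of Slc1a5 was lost when some mice were left out, as given below. Slc1a1 encodes EAAT3, the apical carrier of glutamate, aspartate and cysteine in absorptive epithelium. It had 86.9, 63.0, 73.0, 72.9 and 103 CPM in CD mice, and 95.03 to 141 CPM with a median of 117 in FFD mice. FFD mouse 3 was below CD mouse 5 and the other 5 FFD mice were above every CD mouse, with a log2 fold change of 0.56 (SE 0.13, edgeR adjusted p = 0.0059). The other three carriers fell. Slc1a4 (chr11:20302180-20332713, - strand) encodes ASCT1, which exchanges serine, alanine and cysteine. Its level was 38.7, 35.5, 26.1, 24.7 and 31.7 CPM in CD mice, and 12.9 to 20.8 CPM with a median of 16.9 in FFD mice. The diets did not overlap, and the mean in CD mice was 1.85-fold that in FFD mice (log2 fold change -0.89, SE 0.15, edgeR adjusted p = 0.0017).

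Slc1a5 encodes ASCT2, the glutamine carrier that is high in crypt cells and tumors. It had 157, 126, 136, 126 and 147 CPM in CD mice, and 107 to 130 CPM with a median of 120 in FFD mice. Of the 6 FFD mice, 5 were below every CD mouse and FFD mouse 3 was within the CD range. FFD mice 1 and 4, at 125.4 and 125.1 CPM, were barely under CD mouse 2, the lowest of its diet at 125.7 CPM. The difference of Slc1a5 is therefore small beside the spread. Its log2 fold change was -0.22 (SE 0.078, edgeR adjusted p = 0.038), the smallest of the members that passed, and the call was lost when CD mouse 1, 3 or 5 or FFD mouse 2, 5 or 6 was left out (log2 fold change -0.16, -0.22, -0.18, -0.20, -0.20 and -0.21, adjusted p = 0.14, 0.084, 0.12, 0.081, 0.079 and 0.068, in that order). Slc1a3, the glutamate carrier GLAST of glia and stroma, was scarce, with 149 counts summed over CD and 65 summed over FFD mice. It had 0.955, 1.37, 1.15, 1.25 and 0.873 CPM in CD mice, and 0.279 to 0.641 CPM with a median of 0.528 in FFD mice. The diets did not overlap (log2 fold change -1.13, SE 0.24, edgeR adjusted p = 0.0038). Markers of stroma, muscle, endothelium and glia, 3 of 12 of which were tested and none called, summed to 2.95 to 5.78 CPM on CD and 2.42 to 5.49 CPM on FFD. The ratio of Slc1a1 to Slc1a5 per kb was 0.291 ± 0.039 in CD and 0.506 ± 0.096 in FFD mice. Its lowest FFD value, 0.369, was above its highest CD value, 0.355. The ratio was not tested, and its separation follows from the rise of the former gene and the fall of the latter. Slc1a1 overlaps the gene 4430402I18Rik on the opposite strand, which stood at 1.37 and 1.95 CPM.

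Both tested proton-coupled carriers of the SLC36 family rose, as did 18.2% of all tested genes. Slc36a1 encodes PAT1, which carries glycine, proline and alanine at the apical and the lysosomal membrane. It had 71.9, 60.1, 62.5, 61.6 and 106 CPM in CD mice, and 84.5 to 155 CPM with a median of 121 in FFD mice. CD mouse 5 stood well above the other CD mice and above FFD mice 2 and 6. The log2 fold change was 0.74 (SE 0.18, edgeR adjusted p = 0.0077). Slc36a4, which carries proline and tryptophan, was less abundant, with 6.45, 5.83, 4.96, 4.57 and 5.47 CPM in CD mice, and 6.45 to 8.87 CPM with a median of 7.16 in FFD mice. FFD mouse 1 and CD mouse 1 were level, and the other 5 FFD mice were above every CD mouse. This was a log2 fold change of 0.42 (SE 0.12, edgeR adjusted p = 0.016), and it did not pass with libraries scaled to total counts (log2 fold change 0.26, adjusted p = 0.092).

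None of the 7 tested SLC38 carriers passed edgeR's test. At an unadjusted p under 0.05, 2 were higher and 0 lower, which is 28.6% in either direction. Of all 15044 tested genes, 3365 were higher and 3662 lower at that p, together 46.7%. DESeq2 called 1 SLC38 carrier. Slc38a2 encodes SNAT2, the sodium-dependent carrier of small neutral amino acids whose level responds to changes in amino acid supply in many cells. It had 212, 173, 190, 180 and 220 CPM in CD mice, and 194 to 277 CPM with a median of 231 in FFD mice. Of the 6 FFD mice, 4 were above every CD mouse, with a log2 fold change of 0.24 (SE 0.10, edgeR adjusted p = 0.080). The difference passed when CD mouse 5, FFD mouse 3 or FFD mouse 6 was left out, with log2 fold changes of 0.30, 0.29 and 0.28 and adjusted p-values of 0.046, 0.036 and 0.043. Slc38a10 was nearly level between the diets, with 123 ± 6.35 CPM on CD (SD, n = 5) and 120.3 ± 6.78 CPM on FFD (SD, n = 6), a log2 fold change of -0.03 (SE 0.058). The glutamine carrier Slc38a1 and the lysosomal glutamine carrier Slc38a7 differed by 0.18 and 0.14 (Slc38a1 by 0.27 without CD mouse 1, where it passed with adjusted p = 0.040), and the lysosomal arginine sensor Slc38a9 by -0.11 (SE 0.18). Slc38a6 stood at 0.01 (SE 0.17) and Slc38a11, at 1.22 and 1.92 CPM, at 0.62 (SE 0.26).

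Of the 3 tested SLC43 carriers 1 fell (33.3%, against 18.6% of all tested genes). Slc43a1 encodes LAT3, a facilitated carrier of large neutral amino acids. It had 3.46, 3.64, 3.41, 2.69 and 2.77 CPM in CD mice, and 1.202 to 2.48 CPM with a median of 1.79 in FFD mice. The diets did not overlap (log2 fold change -0.80, SE 0.19, edgeR adjusted p = 0.0062). Slc43a2, the basolateral relative LAT4, differed by 0.24 (SE 0.16), and Slc43a3 by 0.08 (SE 0.31). Of the CAT family, which is named for carriers of cationic amino acids, Slc7a1, the main arginine carrier CAT1, had 66.5 ± 8.74 CPM on CD and 64.3 ± 4.09 CPM on FFD (log2 fold change -0.05, SE 0.083). Slc7a4 and Slc7a2 differed by -0.22 (SE 0.11) and -0.35 (SE 0.25), and none of these 3 passed edgeR's test, DESeq2 or an unadjusted p under 0.05.

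The 26 members under the filter had 1 to 116 counts over all 11 libraries, and 6 had under 10 counts. None had 0 counts in every mouse. The largest were the glial glutamate carrier Slc1a2 (85 counts summed over CD and 31 over FFD mice) and the betaine carrier Slc6a12 (70 and 10 counts). Slc6a12 was below the filter in both diets, with 0.230 to 0.842 CPM in CD mice and 0 to 0.240 CPM in FFD mice. The neutral amino acid carrier Slc6a18 had 2 counts over the CD libraries and 0 over the FFD libraries, and Slc7a10 had 1 count in all. Run with no filter, edgeR called Slc6a12 lower in FFD mice and no other member under the filter. Slc1a2 passed the filter only when CD mouse 5, its lowest CD mouse with 2 counts, was left out. It was called lower there, but that call rests on the removal, and no result is drawn from it. At this depth no difference was detectable for the rest, which include the carriers of dopamine, noradrenaline and GABA.

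The mice kept similar places across the members that passed. Of the 9 carriers that rose, CD mouse 5 was the highest CD mouse in 7, FFD mouse 3 the lowest FFD mouse in 6 and FFD mouse 6 the highest FFD mouse in 5. Of the 5 that fell, FFD mouse 3 was the highest FFD mouse in 5 and FFD mouse 6 the lowest in 3. FFD mouse 3 therefore lay nearest to the CD mice for most of these carriers. Its TMM factor, 1.047, also lay within the CD range of 1.032 to 1.084. The other FFD libraries had factors of 0.893 to 0.974. Such places were not counted over all genes, so the pattern is not shown to be particular to the carriers. These members were measured in the same libraries and are not independent of each other.

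**Figure D4:**
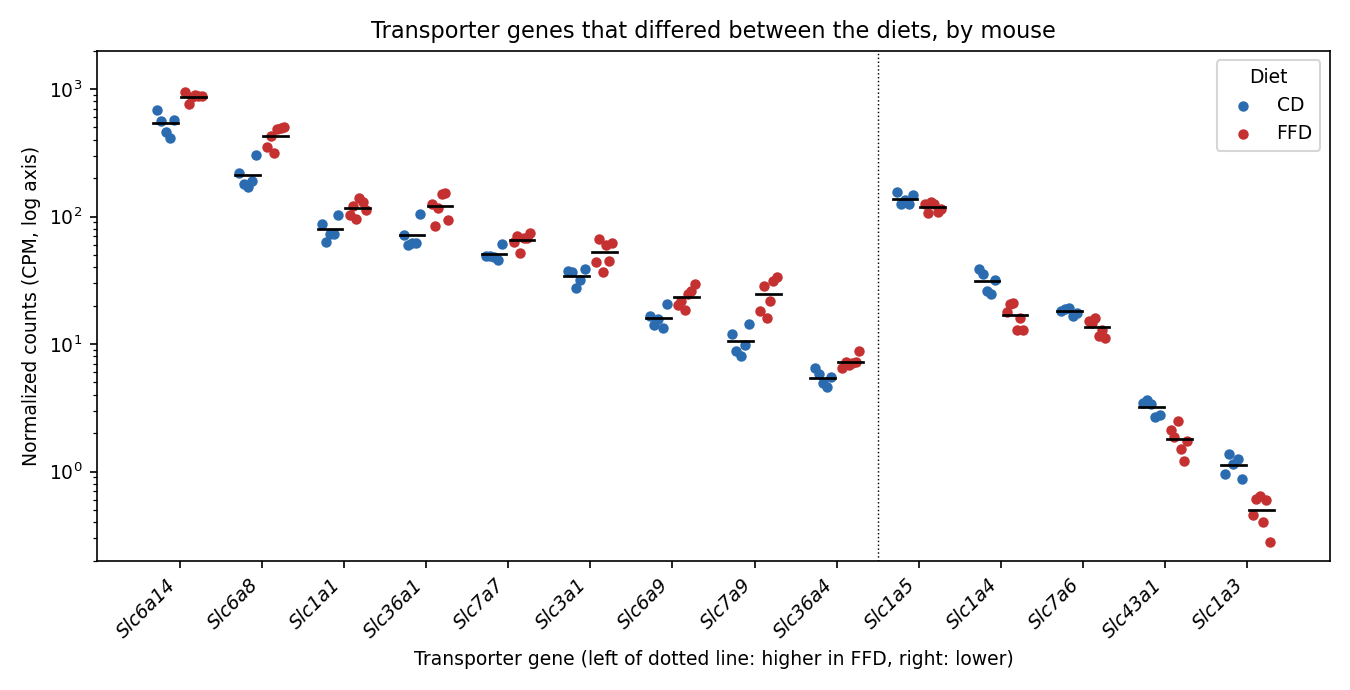
Level in CPM (logarithmic axis) of the 14 carrier genes that passed the test in each mouse, blue for CD and red for FFD mice, with a bar at the group mean; genes left of the dotted line were higher in FFD mice and genes right of it lower. Slc6a14, Slc6a8 and Slc7a9 on the left and Slc1a4, Slc7a6, Slc43a1 and Slc1a3 on the right do not overlap between the diets, and CD mouse 5 reaches into the FFD range for Slc36a1, at 106 CPM.

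Other genes around amino acid transport were followed on 5 related lists, which also hold Slc6a20a (6.03 and 5.16 CPM, edgeR adjusted p = 0.41) and Slc6a20b (not tested). Of their 115 tested genes, 9 were higher (7.83%, against 18.2% of all tested genes) and 31 lower (27.0%, against 18.6%) in FFD mice, and their median log2 fold change was -0.10. Slc15a1, the apical peptide carrier PepT1, rose from 12.8 ± 5.16 to 36.2 ± 11.0 CPM (log2 fold change 1.499, edgeR adjusted p = 0.0020). Of the other 6 tested carriers and partners of the plasma membrane and lysosome, 2 fell, the aromatic amino acid carrier Slc16a10 (-0.54) and the lysosomal histidine and peptide carrier Slc15a4 (-0.27). Of 17 mitochondrial and lysosomal carriers 4 rose and 4 fell, 23.5% each way against 18.2% and 18.6% of all tested genes. Among those that fell were Sfxn1, the mitochondrial serine carrier (-0.47), Sfxn2 (-0.41) and the ornithine carrier Slc25a15 (-0.23). Among those that rose were the glutamate carrier Slc25a22 (0.42) and 2 that carry other cargo, Slc25a40 (0.44, glutathione) and Slc17a9 (0.49, nucleotides). With libraries scaled to total counts Slc25a22 (0.26, adjusted p = 0.055) and Slc25a40 (0.29, adjusted p = 0.057) did not pass.

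Of 38 tested genes of the amino acid response of ATF4, carriers left out, 14 fell (36.8%, against 18.6% of all tested genes). Only 1 rose (2.63%, against 18.2%), and the median log2 fold change was -0.15. The other 23 did not pass and moved both ways. Among them were Ddit3 (0.42), Chac1 (0.36), Trib3 (0.31), Asns (-0.08), Sesn2 (-0.09), Pycr1 (-0.20) and Mthfd2 (-0.34). Cbs, which joins homocysteine and serine on the way to cysteine, fell from 50.1 ± 12.5 to 18.6 ± 5.73 CPM (log2 fold change -1.42, edgeR adjusted p = 0.0011). Shmt2, which turns serine into glycine in mitochondria (-0.73), Cth, which releases cysteine (-0.36), and the tRNA synthetase Eprs (-0.31) also fell, and Cebpg, a partner of ATF4, rose (0.24, but 0.08 with adjusted p = 0.20 when libraries were scaled to total counts). Of 23 enzymes of glutamine, arginine, proline, branched-chain and polyamine metabolism 10 fell (43.5%, against 18.6% of all tested genes) and 3 rose (13%, against 18.2%). The enzymes Bcat2 (-0.63) and Bckdhb (-0.58), which break down branched-chain amino acids, and Pycrl (-0.37), of proline synthesis, fell. Smox (0.82) and Sat1 (0.47), which break down polyamines, rose, as did Nos2, which makes nitric oxide from arginine, from 43.04 ± 17.9 to 164 ± 95.7 CPM (1.93). Of 30 genes of amino acid sensing by mTORC1, 1 fell, Flcn (-0.33), and none rose in edgeR's test. At an unadjusted p under 0.05, 8 were lower and 1 higher, which is 30% of the list against 46.7% of all tested genes, and DESeq2 called 1 each way. Dividing cell markers were lower and colonocyte markers higher in the same mice, at the summed levels given above, and their part in these counts was not tested. The calls of Slc15a4, Sfxn2, Slc25a15 and Flcn were each lost without CD mouse 2 (edgeR adjusted p = 0.080, 0.056, 0.077 and 0.098, in that order). They were also lost without CD mouse 5 for Slc15a4 (0.057), without CD mouse 3 for Sfxn2 (0.056), without CD mouse 1 or 3 or FFD mouse 4 or 6 for Slc25a15 (0.050 to 0.068), and without CD mouse 1, 4 or 5 or FFD mouse 2, 4 or 5 for Flcn (0.051 to 0.12).

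**Figure D5:**
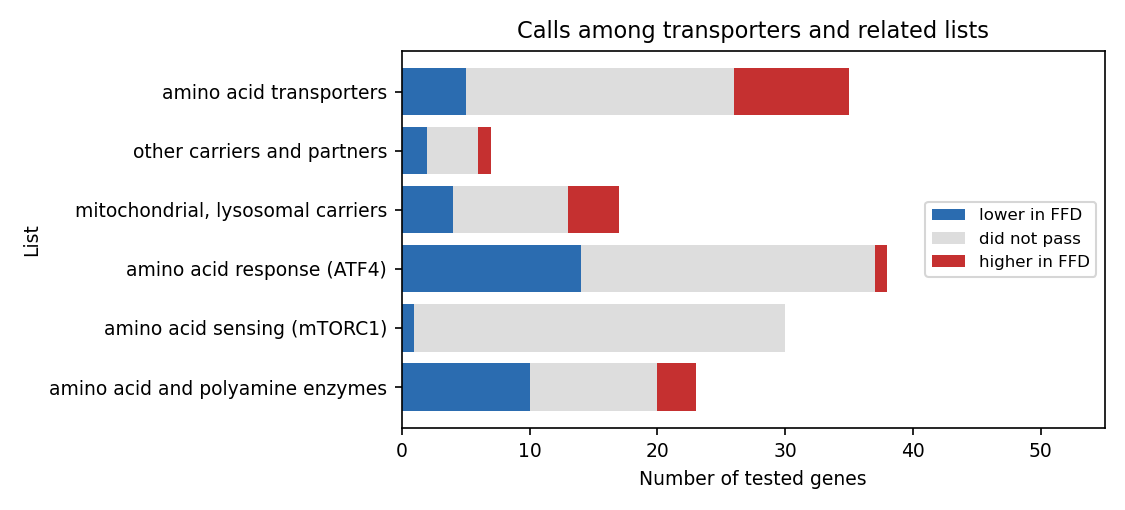
Number of tested genes (horizontal axis) that were lower in FFD mice (blue), higher (red) or not past the threshold (gray) among the carrier genes and 5 related lists. The carriers have 9 higher and 5 lower of 35, the amino acid response of ATF4 has 1 higher and 14 lower of 38, and the list of mTORC1 sensing has 1 lower of 30. Of all tested genes 18.2% were higher and 18.6% lower.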

How the data were processed

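RNA-seq of colonic epithelium was analysed for the 2 diets, with 5 CD and 6 FFD libraries, presumably each from its own mouse. Per the methods of the study, the authors released the cells with DTT and EDTA, purified them on Percoll, enriched poly(A) RNA, mapped single reads to GRCm38 in the Qiagen CLC Workbench and deposited raw counts of reads per gene. FastQC, R 3.5.1 and DESeq2 1.22.2 are named in the submitters' processing notes. The sources used here do not state the annotation release, the use of strand or how reads mapping to several genes were treated.

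From the deposited counts, genes were kept by filterByExpr of edgeR 4.0.16 (R 4.3.3; minimum count 10, minimum total 15). TMM normalization and edgeR's quasi-likelihood test, with diet as the only term, were applied to all 15044 genes that remained, and Benjamini-Hochberg adjusted p-values under 0.05 were called. Levels per kb use the union of exons in GENCODE M21, and promoter windows are those of RefSeq for GRCm38.p6. The procedure was tested on simulated counts. No pair of libraries of a diet was alike within sampling noise (lowest chi-square per degree of freedom 11.1), and each was used as a replicate. P-values set the difference between the diets against the spread between libraries of the same diet.

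In the sample names every CD sample carries the number 1 and every FFD sample the number 2. If it stands for a cage or batch, that cannot be told apart from the diet. The carriers and the related lists were chosen with earlier results of these data known. Values are given for up to 10 carriers each way past the threshold with the smallest p. They are also given for Slc3a2, Slc7a5, Slc7a11, Slc3a1, Slc7a9, Slc1a5, Slc6a14, Slc6a19, Slc6a8 and Slc38a2 whatever their result. These are the value of each CD mouse and the range and median of the FFD mice, or for Slc6a19 the ranges alone. Of each related list, up to 4 genes with the smallest p and 2 the opposite way are named, and some ATF4 response genes that did not pass are named besides. Alternatives were the size factors of DESeq2, no TMM, no and a stricter filter (1 CPM in 5 mice), the Wald test of DESeq2 1.42.0, limma-voom (limma 3.58.1), a robust fit, a replicate block and each mouse left out in turn. Protein sequences were not used here.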

Additional observations from a re-analysis of the deposited data

Results flagged for a closer look

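In 38 groups of mice (19 carriers in 2 diets) 3 values stood apart from the rest of their diet by Dixon's criterion, which chance meets in about 1 of 20 groups. They belong to CD mouse 5 and FFD mouse 6. CD mouse 5 had 105.5 CPM of Slc36a1, the proton-coupled carrier of glycine and proline, against 60.1 to 71.9 CPM in the other CD mice, and 60.95 CPM of Slc7a7, the exporter of lysine and arginine, against 45.9 to 49.4 CPM. Without CD mouse 5 the log2 fold changes of both genes were larger, 0.93 for Slc36a1 and 0.47 for Slc7a7. FFD mouse 6 had 8.866 CPM of Slc36a4, the carrier of proline and tryptophan, against 6.45 to 7.27 CPM in the other FFD mice.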

How the results depend on the processing

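Of the 14 carriers that passed, 12 kept their call under every alternative that tested them (Slc1a3 was under the stricter filter). The exceptions were Slc1a5, lost with the size factors of DESeq2 (log2 fold change -0.21, adjusted p = 0.055), with no filter (0.088), with the replicate block and without each of 6 mice, and Slc36a4, lost without TMM and with the block. Over all alternatives 8 to 11 carriers were higher and 4 to 9 lower. With libraries scaled to total counts only, the median log2 fold change of all genes moved from -0.03 to -0.19, calls over all genes from 2740 higher and 2792 lower to 1636 and 4863, the carriers that fell from 5 to 9, and the related genes from 9 higher and 31 lower to 5 and 56. There Slc3a2 turned to -0.045, and Slc6a6, Slc7a4, Slc7a5 and Slc7a8 passed as lower (-0.30, -0.37, -0.45 and -0.48). With no filter, 19 related genes were lower. DESeq2 called 11 carriers higher and 5 lower, and limma-voom 9 and 5. Leaving out each mouse gave 9 to 11 carriers higher, 4 to 6 lower, and 8 to 10 related genes higher and 17 to 33 lower, with the lowest without CD mouse 3. Slc6a19 ranged from -0.030 to 0.39 over these.

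The sample names do not say whether the replicate numbers pair the mice. The deviations of mice with the same number had correlations of both signs (-0.208, -0.281, 0.202, -0.293 and 0.278). Of the 5 CD mice, 2 were closest to their own number. So few pairs cannot exclude a pairing. With the number as a replicate block over 10 mice, 8 carriers were higher and 4 lower, and 16 related genes were lower.

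Depth limits the 26 carriers under the filter and the scarce Slc1a3, Slc6a19 and Slc43a3.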
